A study of Rattus norvegicus with 18 samples.

Results

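Rats with plain adjuvant-induced arthritis (AIA) were compared with normal control rats, with 3 AIA and 3 control arrays of knee synovial tissue drawn from 18 arrays in 6 groups. The 6 arrays were chosen by their group label alone, and every gene measured on them was compared. All rats were male Lewis rats, 6 to 8 weeks old and 200 ± 20 g in weight. Total RNA labelled with Cy3 was hybridised to single-colour Agilent arrays. The AIA rats were in the group labelled as the AIA model, with no other agent named, while the other arthritic groups are labelled as cold or hot models or as treated. The controls were in the group labelled as normal. The adjuvant, its dose and the day of tissue collection are not given in the sources used here. The protocol names 78 rats and 10 groups of 6, and it does not say whether each array is its own rat. The p-values below therefore measure the spread between arrays, which may be partly technical.

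Adjuvant arthritis in the rat is an immune-driven disease of many joints that follows injection of a mycobacterial adjuvant. T cells start it, and neutrophils, macrophages and activated synovial fibroblasts carry it in the joint through cytokines such as tumour necrosis factor and interleukin-1, chemokines and matrix-degrading enzymes. Lewis rats are a susceptible strain, and the synovium thickens and later erodes cartilage and bone. The normal synovium is a thin lining of macrophages and lubricin-secreting fibroblasts over a layer of loose connective tissue, fat and vessels.

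A level below is the log2 of a probe's processed signal minus the 75th percentile of its array, and a difference is the AIA mean minus the control mean of such levels, with its standard error from a limma fit of all 18 arrays (17 without control array 1). Levels of different genes cannot be set against each other, because each probe binds with its own strength. Of 26 genes of synovial fibroblasts and lining, all 26 were measured and 25 were well above background on all 6 arrays. Among all 23607 genes tested, 14197 had a probe well above background on these 6 arrays. These counts show detection and do not test the tissue label. Prg4, which encodes lubricin, had log2 levels of 7.42, 7.84 and 7.94 on the AIA arrays, against 7.32, 8.02 and 7.94 on the control arrays. The groups overlapped, and Prg4 was well above background on every array.

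Control array 1 stood apart from the others. The 75th percentile of the signal was 267, 287.5 and 204.6 intensity units on the AIA arrays, against 68.93, 282.7 and 269 on the control arrays. The share of probes well above background was 56.38%, 58.92% and 60.02% on the AIA arrays, against 43.28%, 62.77% and 59.71% on the control arrays. Across genes, the AIA arrays had Pearson correlations of 0.982 to 0.983 with each other and of 0.983 to 0.988 with control arrays 2 and 3, which had 0.991 with each other. Control array 1 had 0.919 to 0.941 with the other 5 arrays. A gene below a log2 level of -1.86 on control array 1 was not well above background there, so its low value on that array is not a measured level. Results are therefore given with all 3 control arrays and, for many lists and genes, also without control array 1. A difference given only once uses all arrays unless stated otherwise, and can depend on control array 1.

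Control array 1 had the highest levels of several cartilage and bone genes. Col2a1, the collagen of cartilage, had log2 levels of -3.38, -2.04 and -0.14 on the AIA arrays, against 11.40, -3.31 and 1.34 on the control arrays. Only control array 1 was very high, and the other 5 arrays lay between -3.38 and 1.34. Ibsp, which encodes bone sialoprotein, had -5.27, -5.40 and -5.35 on the AIA arrays, against 4.25, -5.73 and -2.88 on the control arrays, and it was not well above background on any AIA array or on control array 2. Comp, a cartilage matrix protein, had 4.17, 4.77 and 4.93 on the AIA arrays, against 7.77, 4.95 and 6.33 on the control arrays. Every AIA array lay below every control array for Comp, with control array 1 the highest.

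Muscle, fat and red cell genes varied between arrays too. Ckm, the muscle creatine kinase, had log2 levels of 1.06, -4.28 and -0.37 on the AIA arrays, against -1.02, 2.80 and 1.40 on the control arrays, with the highest value on control array 2 and the lowest on AIA array 2. Adipoq, which encodes the fat hormone adiponectin, had 8.06, 8.16 and 7.65 on the AIA arrays, against 5.63, 7.85 and 7.42 on the control arrays, and only control array 1 fell outside the range of 7.42 to 8.16. Hbb-b1, a beta globin of red cells, had 8.13, 8.38 and 8.08 on the AIA arrays, against 8.06, 8.22 and 6.49 on the control arrays, with only control array 3 below 8.06. Tissue carried along by dissection and a change within the synovium cannot be told apart in bulk RNA, nor can fewer cells of a type and less RNA per cell. The part of these tissues in the results below was not tested.

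**Figure D1:**
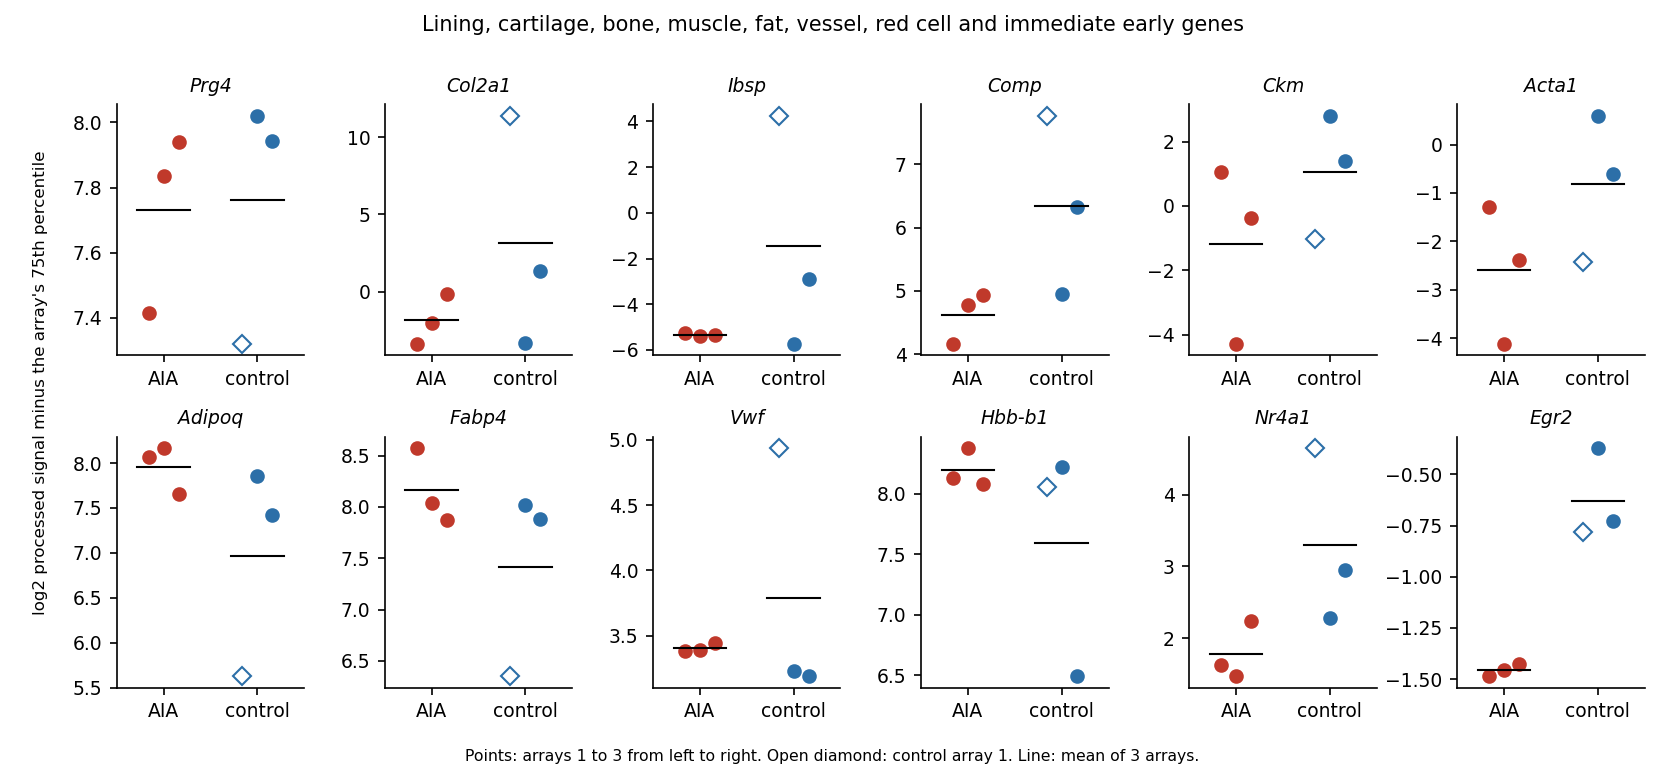
Log2 level of 12 genes of joint tissues and of cell activation on the 3 AIA arrays and the 3 control arrays. Each point is an array, an open diamond marks control array 1 and a line the group mean. Col2a1 and Ibsp were very high on control array 1 alone, while Ckm varied from -4.28 to 1.06 on the AIA arrays and from -1.02 to 2.80 on the control arrays.

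No gene differed between AIA and control synovium at an adjusted p under 0.05 in limma, with Benjamini-Hochberg adjustment over 23607 genes (0% called). At an unadjusted p under 0.05 there were 1484 genes (6.29%), of which 586 were higher in AIA (2.48%) and 898 lower (3.8%). A limma fit of the 6 AIA and control arrays alone gave 828 such genes, 347 higher and 481 lower. The smallest adjusted p in that fit was 0.905. Without control array 1 the adjusted test again called 0 genes (0%), with 540 higher (2.29%) and 585 lower (2.48%) at an unadjusted p under 0.05, 1125 in all (4.77%). All AIA arrays lay above all control arrays for 1255 genes (5.32%) and below them for 1259 (5.33%), and such genes are said below not to overlap. Without control array 1 these counts were 3134 (13.3%) and 2849 (12.1%) with 3 arrays against 2. At least 2-fold higher were 241 genes (1.02%) and at least 2-fold lower 512 (2.17%), which without control array 1 were 237 (1%) and 173 (0.733%). A difference above 0 was found for 46.5% of genes and one below 0 for 53.5%, against 52.9% and 47.1% without control array 1. The median log2 difference over all genes was -0.03, and 0.02 without control array 1. No gene named below therefore passed the test over all genes, and the differences that follow are given as sizes with their errors.

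The smallest adjusted p-values belonged to genes lower in AIA. The lowest in limma was 0.137, shared by 3 genes that were all lower. They were Irak2, a kinase that carries signals from the interleukin-1 and Toll-like receptors, Mat1a, which makes the methyl donor S-adenosylmethionine in liver, and a transcript with no symbol. None of the 3 was well above background on any AIA array, and Mat1a, which is outside the naming rule because it was well above background on only 2 control arrays, was named after its values had been seen. Zbtb5, a zinc finger repressor of transcription, Ubxn2b, a cofactor of the p97 segregase, and Actrt2, an actin-related protein of the testis, had an adjusted p of 0.198. Without control array 1 the lowest was 0.0801, for Ubxn2b. Among the other genes that fall under the rule given under processing, the lowest adjusted p was 0.335 with all arrays and 0.501 without control array 1. The probe sequences of Irak2, Zbtb5, Ubxn2b and Actrt2 are shown because these had the smallest p among lower genes with a symbol and well above background on all 3 control arrays. Each is 60 bases long and is given 5′ to 3′ from the scanner files.
Irak2: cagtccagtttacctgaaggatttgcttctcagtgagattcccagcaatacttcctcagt
Zbtb5: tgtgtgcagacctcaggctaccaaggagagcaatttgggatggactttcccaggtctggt
Ubxn2b: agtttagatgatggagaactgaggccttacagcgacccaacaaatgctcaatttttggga
Actrt2: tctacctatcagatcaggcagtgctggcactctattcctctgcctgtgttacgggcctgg
Their GC content was 45% for Irak2, 53.3% for Zbtb5, 43.3% for Ubxn2b and 55% for Actrt2, against a median of 43.3% and quartiles of 36.7% and 48.3% over the 23607 tested probes. Among the 6 pairs of these sequences the longest run of bases shared on either strand was 5 to 7.

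On the slide that held all control arrays, the levels of Irak2, Zbtb5, Ubxn2b and Actrt2 fell from position 1 to position 4. The 3 control arrays and AIA array 1 were hybridised on this slide, at positions 1, 2, 3 and 4, and AIA arrays 2 and 3 on another. The genes were picked as lower in AIA, so the low place of AIA array 1 at position 4 partly follows from that choice. Irak2 had log2 levels of -4.33, -5.86 and -5.67 on the AIA arrays, against -0.46, -2.14 and -3.08 on the control arrays. On the shared slide the level was highest at position 1 and lowest at position 4. Irak2 was not well above background on any AIA array, so it was at least 2.97-fold lower in AIA and at least 1.81-fold lower without control array 1. Zbtb5 had -3.42, -5.73 and -4.38 on the AIA arrays, against 1.70, -0.93 and -1.77 on the control arrays, at least 8.76-fold and 4.33-fold lower in AIA with and without control array 1. Actrt2 had -3.55, -5.75 and -5.38 on the AIA arrays, against 1.61, -1.09 and -2.04 on the control arrays, at least 7.76-fold and 3.72-fold lower. Ubxn2b, which was well above background on all 6 arrays, had -1.84, -2.44 and -2.33 on the AIA arrays, against 0.81, -0.76 and -0.96 on the control arrays. Its log2 difference was -1.90 ± 0.33, with a 95% interval of -2.61 to -1.18, and -1.34 ± 0.18 without control array 1. For all 4 genes every AIA array lay below every control array.

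The same order appeared among other lower genes. Of the 12 lower genes with the smallest p that had a symbol and were well above background on all control arrays, 6 followed the order control array 1, control array 2, control array 3, AIA array 1 from high to low, against 2068 of all 23607 genes (8.76%). In 11 of the 12 lower genes all 3 control arrays lay above AIA array 1 and above all 14 arrays of other slides, against 200 of all genes (0.847%). The 12 were selected for low AIA arrays and so could show both patterns more often than genes not selected. Both patterns were less frequent among the 12 lower genes with the smallest p without control array 1. Of those, 4 had the order and 6 had all control arrays above the rest. On the other 14 arrays Irak2 lay between -6.39 and -4.31, Zbtb5 between -5.73 and -3.03, Ubxn2b between -2.54 and -2.03 and Actrt2 between -5.97 and -3.10 in log2 level. All control arrays shared 1 slide, so a slide effect and the control state cannot be told apart for these genes. AIA array 1 lay below the mean of control arrays 2 and 3 on the same slide by a log2 difference of -1.72 for Irak2, -2.08 for Zbtb5, -0.97 for Ubxn2b and -1.98 for Actrt2.

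**Figure D2:**
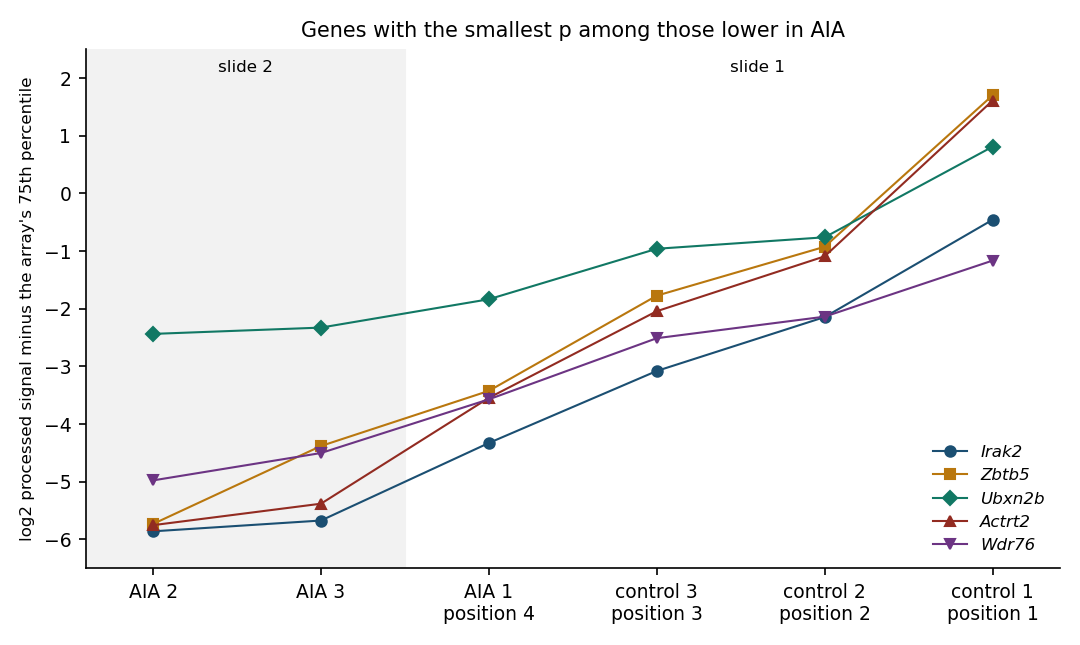
Log2 level of Irak2, Zbtb5, Ubxn2b, Actrt2 and Wdr76 on each of the 6 arrays, with the AIA arrays to the left and the control arrays to the right. On the shared slide the level of each gene is lowest on AIA array 1 at position 4, then higher on control array 3, control array 2 and control array 1, with Irak2 at -4.33, -3.08, -2.14 and -0.46.

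Other genes near the top of the lower side were well above background on all 6 arrays. Arrb1, which encodes the receptor adaptor beta-arrestin 1, had log2 levels of -1.93, -1.78 and -1.95 on the AIA arrays, against -0.22, -1.34 and -1.19 on the control arrays. Its log2 difference was -0.97 ± 0.23, and -0.62 ± 0.15 without control array 1. Every AIA array lay below every control array, with control array 1 the highest. F5, coagulation factor V, differed by -0.77 ± 0.19 in log2 level and by -0.61 ± 0.19 without control array 1. Plxdc1, a marker of tumour vessels, differed by -0.83 ± 0.21. Dusp14, a phosphatase of MAP kinases, had log2 levels of -0.08, -0.08 and 0.02 on the AIA arrays, against 0.36, 0.64 and 0.42 on the control arrays. Its groups did not overlap, and its log2 difference was -0.52 ± 0.13 with all arrays and -0.58 ± 0.14 without control array 1. Ift80, a protein of ciliary transport, differed by -0.48 ± 0.12 and by -0.50 ± 0.13, so Dusp14 and Ift80 kept their size when control array 1 was left out.

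Most higher genes with the smallest p differed by less than 2-fold. Svep1, an adhesion protein of the extracellular matrix, had log2 levels of -0.95, -0.98 and -0.73 on the AIA arrays, against -1.63, -1.26 and -1.44 on the control arrays. All AIA arrays lay above all control arrays, with a log2 difference of 0.56 ± 0.14, and 0.47 ± 0.14 without control array 1. Another Svep1 probe gave a log2 difference of 0.57. Fgf7, a growth factor that fibroblasts secrete for epithelium, had -1.21, -0.99 and -1.27 on the AIA arrays, against -1.97, -1.60 and -1.50 on the control arrays. It too did not overlap, with a log2 difference of 0.54 ± 0.14 and 0.40 ± 0.13 without control array 1. Both genes were not well above background on 1 control array. Exosc7, a subunit of the RNA exosome, differed by 0.78 ± 0.23, Supt4h1, a transcription elongation factor, by 0.46 ± 0.14, and Top1mt, the mitochondrial topoisomerase I, by 0.37 ± 0.12. None of the 3 overlapped between the groups, and all were well above background on every array. Hint3, a histidine triad nucleotide-binding protein, had log2 levels of -1.16, -0.92 and -1.19 on the AIA arrays, against -1.27, -1.86 and -2.00 on the control arrays. Its log2 difference was 0.62 ± 0.20, and 0.85 ± 0.18 without control array 1, when it had the smallest p among higher genes with a symbol.

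Alarmins and antimicrobial peptides of neutrophils had higher AIA than control means, and AIA array 1 carried the highest levels. S100a9, which forms the alarmin calprotectin with S100a8, had log2 levels of 4.19, 0.45 and 1.89 on the AIA arrays, against 0.20, 0.23 and -1.20 on the control arrays. All AIA arrays lay above all control arrays, and AIA array 2 did so by 0.22 on that scale. The log2 difference was 2.43 ± 1.29, with a 95% interval of -0.33 to 5.20, and 2.66 ± 1.49 without control array 1. S100a8 had 3.67, -0.59 and 1.03 on the AIA arrays, against -0.47, 0.11 and -0.91 on the control arrays. AIA array 2 lay below control arrays 1 and 2, so the groups overlapped, and the log2 difference was 1.79 ± 1.39. Camp, the cathelicidin of neutrophil granules, had 1.82, -2.33 and -0.51 on the AIA arrays, against -1.28, -2.07 and -2.80 on the control arrays, and RatNP-3b, a neutrophil defensin, had 3.81, -3.12 and 0.49 on the AIA arrays, against -0.89, -2.89 and -4.23 on the control arrays. In both, AIA array 1 was the highest and AIA array 2 lay within the control range.

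Of the 23 neutrophil and alarmin genes listed, 14 were measured, 10 had a positive difference and 0 passed an unadjusted p under 0.05. The groups did not overlap for 1 of them (5.32% of all genes), which is S100a9. The median log2 difference was 0.62, against 0.42 without control array 1 and 0.22 without AIA array 1. Mean log2 levels over the list were 1.40, -0.77 and 0.14 on the AIA arrays and -0.30, -0.48 and -0.88 on the control arrays. AIA array 1 lay above the mean of control arrays 2 and 3 for 12 of the 14 genes on the shared slide. Lcn2, which encodes a siderophore-binding protein of neutrophils and inflamed tissue, had 0.62, -0.29 and 0.30 on the AIA arrays, against 1.47, -0.18 and -0.66 on the control arrays, with overlap and the highest value on control array 1.

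**Figure D3:**
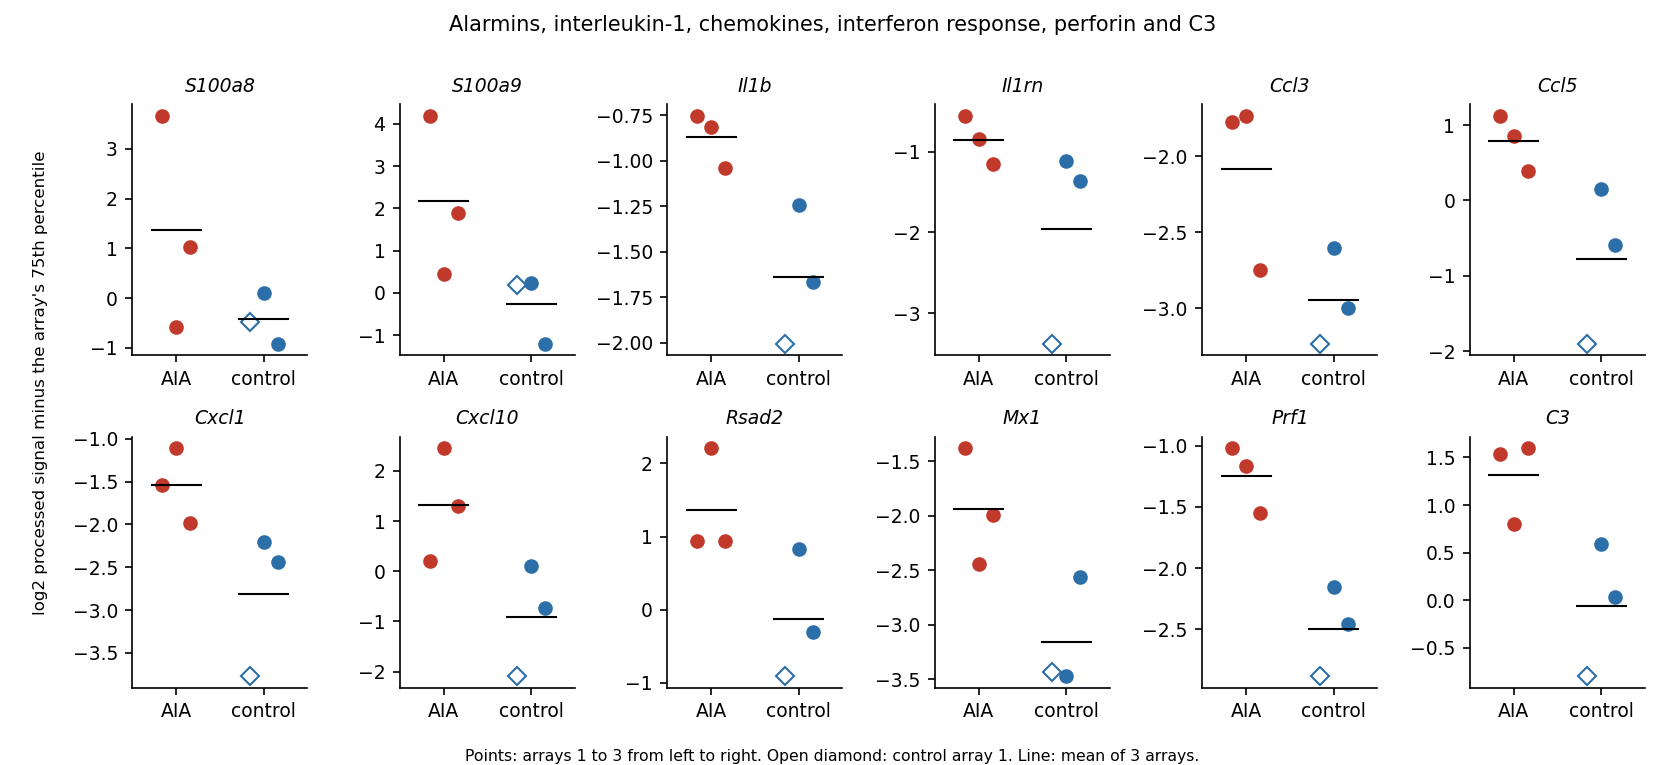
Log2 level of 12 inflammation genes on the 3 AIA arrays and the 3 control arrays. Each point is an array, an open diamond marks control array 1 and a line the group mean. S100a9, Cxcl10, Rsad2 and C3 had all AIA arrays above all control arrays, while S100a8 overlapped through AIA array 2 at -0.59.

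Il1b and Il1rn had higher means in AIA. Il1b, which encodes interleukin-1 beta, had log2 levels of -0.75, -0.82 and -1.04 on the AIA arrays, against -2.01, -1.25 and -1.66 on the control arrays. The groups did not overlap, with as little as 0.21 on the log2 scale between AIA array 3 and control array 2. The log2 difference was 0.77 ± 0.32, and 0.59 ± 0.35 without control array 1. Another Il1b probe gave a log2 difference of 0.65. Il1rn, the natural antagonist of the interleukin-1 receptor, had -0.56, -0.85 and -1.16 on the AIA arrays, against -3.37, -1.12 and -1.37 on the control arrays. Only AIA array 3 lay below control array 2, and the log2 difference of 1.10 ± 0.48 came to 0.39 ± 0.34 without control array 1. Both genes were not well above background on control array 1.

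Of 26 chemokine genes measured of 30, 17 had a positive and 9 a negative difference. At an unadjusted p under 0.05, 6 were higher (2.48% of all genes) and 0 lower, and 6 were higher without overlap (5.32%). With control array 1 left out, 1 was higher at that p (2.29%), 8 were higher (13.3%) and 2 lower (12.1%) without overlap, with a median log2 difference of 0.20 with and 0.21 without that array. Ccl5, which draws T cells and monocytes, had log2 levels of 1.12, 0.86 and 0.40 on the AIA arrays, against -1.90, 0.15 and -0.59 on the control arrays. The groups did not overlap, and the log2 difference was 1.57 ± 0.59, against 1.01 ± 0.59 without control array 1. Cxcl10, an interferon-induced chemokine for T cells, had 0.21, 2.45 and 1.30 on the AIA arrays, against -2.09, 0.11 and -0.74 on the control arrays, with no overlap and a log2 difference of 2.22 ± 0.97. Its 95% interval was 0.16 to 4.29, and the difference without control array 1 was 1.63 ± 1.06.

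The neutrophil chemokine Cxcl1 had log2 levels of -1.54, -1.11 and -1.98 on the AIA arrays, against -3.77, -2.21 and -2.44 on the control arrays. Its groups did not overlap, with a log2 difference of 1.27 ± 0.44, and 0.78 ± 0.41 without control array 1. Ccl3, a chemokine of macrophages, had -1.77, -1.73 and -2.75 on the AIA arrays, against -3.23, -2.60 and -2.997 on the control arrays. AIA array 3 lay below control array 2, so Ccl3 overlapped, with a log2 difference of 0.86 ± 0.24. Ccl4, its close relative, differed by 0.78 ± 0.28 with and 0.56 ± 0.29 without control array 1, without overlap. It was well above background on only 1 control array. Ccl2, the monocyte chemokine, had 0.59, 1.63 and 1.64 on the AIA arrays, against 1.22, 1.27 and 1.79 on the control arrays, with overlap and a log2 difference of -0.14 ± 0.63. Cxcl13, which draws B cells, had 4.27, 5.33 and 3.74 on the AIA arrays, against 2.24, 5.20 and 5.23 on the control arrays, and its difference had opposite signs with control array 1 (0.22) and without it (-0.77).

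Inflammatory cytokines and feedback genes showed no common direction. Tgfb1, which encodes the anti-inflammatory and fibrogenic transforming growth factor beta 1, had log2 levels of -0.29, -0.27 and -0.41 on the AIA arrays, against 0.15, 0.04 and 0.20 on the control arrays. All AIA arrays lay below all control arrays, and the log2 difference was -0.45 ± 0.16 with and -0.44 ± 0.18 without control array 1. Il6 was well above background on 1 AIA and 1 control array, with log2 levels of -3.64, -3.69 and -3.18 on the AIA arrays, against -1.75, -3.63 and -3.65 on the control arrays. Tnf, Ptgs2, Nos2 and Tnfsf11 have probes on the array but were not well above background on all 3 arrays of any of the 6 groups, so no difference is given. Of 14 cytokine and receptor genes measured, 7 were higher and 7 lower, with a median log2 difference of -0.03. Of 14 NF-kappaB targets and feedback genes, 4 were higher and 10 lower, with a median of -0.10. Rel, an NF-kappaB subunit, did not overlap and differed by -0.51 ± 0.21 with and -0.27 ± 0.18 without control array 1.

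Receptors and adaptors of the interleukin-1 and Toll-like receptor pathway split. With all arrays, 15 of 29 genes had a positive and 14 a negative difference, and 2 were higher (2.48% of all genes) and 2 lower (3.8%) at an unadjusted p under 0.05. When control array 1 was left out, 20 of 29 were lower, 12 of them without overlap (12.1% of all genes) and 5 at an unadjusted p under 0.05 (2.48%). Cd14, Tlr2, Csf1r, Trem2, Alox5, Ltc4s, Tbxas1, C5ar1 and Pcna were named after their values had been seen, beyond the genes that the naming rule gave. Cd14, the coreceptor for endotoxin, had log2 levels of 3.24, 3.75 and 3.53 on the AIA arrays, against 2.38, 4.24 and 4.33 on the control arrays. The AIA arrays lay below control arrays 2 and 3 and above control array 1. Its log2 difference was -0.14 ± 0.39 with and -0.78 ± 0.22 without control array 1. Tlr2, a receptor for bacterial lipoproteins, had 3.73, 4.26 and 3.85 on the AIA arrays, against 2.55, 4.62 and 4.48 on the control arrays, with the same order of arrays and a difference of -0.60 ± 0.22 without control array 1.

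Most genes induced by type I interferon had a positive difference. Of 21 measured, 19 had a positive difference with all arrays and 20 without control array 1, against 46.5% and 52.9% of all genes with a positive difference. The groups did not overlap for 7 with (5.32% of all genes) and 8 without that array (13.3%), all higher in AIA. The median log2 difference was 0.41, and 0.28 without control array 1. Mean log2 levels over the list were 1.01, 0.71 and 0.36 on the AIA arrays and 0.06, 0.21 and 0.38 on the control arrays. AIA array 1 was thus the highest, and AIA array 3 lay below control array 3. On the shared slide AIA array 1 lay above the mean of control arrays 2 and 3 for 21 of 21 genes. At an unadjusted p under 0.05, 1 was higher with all arrays (2.48% of all genes) and 0 without control array 1 (2.29%). The 1 gene is Rsad2, an antiviral enzyme also called viperin.

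Rsad2 had log2 levels of 0.94, 2.21 and 0.94 on the AIA arrays, against -0.91, 0.84 and -0.31 on the control arrays. The lowest AIA array lay 0.10 above control array 2, the groups did not overlap, and the log2 difference was 1.49 ± 0.63 with and 1.10 ± 0.69 without control array 1. Mx1, an antiviral GTPase, had -1.38, -2.44 and -1.99 on the AIA arrays, against -3.44, -3.47 and -2.56 on the control arrays, also without overlap. Irf7, the factor that amplifies interferon production, had 3.85, 3.61 and 3.18 on the AIA arrays, against 2.57, 2.67 and 3.11 on the control arrays. Its lowest AIA array lay 0.07 above the highest control array, and its log2 difference was 0.77 ± 0.58. Isg15, an interferon-induced ubiquitin-like protein, had 3.85, 3.12 and 2.42 on the AIA arrays, against 2.35, 1.98 and 2.70 on the control arrays, and AIA array 3 lay below control array 3.

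Of 23 T and NK cell genes measured, 12 had a positive and 11 a negative difference with all arrays. Prf1, the pore-forming perforin, had log2 levels of -1.02, -1.16 and -1.55 on the AIA arrays, against -2.88, -2.15 and -2.45 on the control arrays. The 3 AIA arrays lay above all control arrays, and the log2 difference was 1.25 ± 0.43 with and 1.06 ± 0.49 without control array 1. Gzmm, a granzyme of natural killer cells that is not on the list, did not overlap. Its log2 levels were -0.86, -0.73 and -1.56 on the AIA arrays, against -3.62, -1.64 and -2.19 on the control arrays. The difference was 1.43 ± 0.44 with and 0.87 ± 0.37 without control array 1. Gzmk, a granzyme of memory T cells, had -1.65, -2.16 and -2.55 on the AIA arrays, against -3.10, -2.82 and -3.52 on the control arrays and did not overlap. Of the 31 genes listed, 5 were well above background on all 6 arrays. With all arrays 3 were higher without overlap (5.32% of all genes), and without control array 1 18 had a positive difference and 9 were higher without overlap (13.3%). The median log2 difference of the list was 0.19 with and 0.31 without that array, and it was negative without AIA array 3, with slide as a fixed block and over genes well above background on all 6 arrays. Prf1 and Gzmk were named because they were among the 4 members of the list with the smallest p, so they do not stand for the list. Cd3e, a defining chain of the T cell receptor complex, overlapped and was not well above background on any of the 6 arrays. Its log2 difference was -0.26 ± 0.77 with and 0.43 ± 0.79 without control array 1.

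Antigen presentation genes overlapped. RT1-Da, an MHC class II chain, had log2 levels of 4.33, 4.21 and 4.43 on the AIA arrays, against 2.26, 4.60 and 4.03 on the control arrays. Control array 1 was the lowest and control array 2 the highest, and the log2 difference of 0.70 ± 0.54 came to 0.01 ± 0.47 without control array 1. Cd74, the invariant chain that escorts MHC class II, differed by 0.53 ± 0.50 with and 0.05 ± 0.50 without that array. Of 9 MHC class II genes measured, 6 were higher and 0 were higher without overlap. B and plasma cell genes were mostly near background, with 6 of 17 measured and 1 well above background on all 6 arrays.

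Macrophage genes gave opposite answers with and without control array 1. With all arrays 19 of 28 measured genes had a positive difference and the median log2 difference was 0.17. On leaving out control array 1, 20 of 28 had a negative difference and the median was -0.49. At an unadjusted p under 0.05, 11 were then lower (2.48% of all genes) and 0 higher, and 18 lay below both control arrays without overlap (12.1% of all genes). Mean log2 levels over the list were 0.86, 1.05 and 0.76 on the AIA arrays and -0.26, 1.27 and 1.25 on the control arrays. The AIA arrays thus lay between control array 1 and the other control arrays. On the shared slide AIA array 1 lay below the mean of control arrays 2 and 3 for 21 of the 28 genes.

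Cd68, a lysosomal marker of macrophages, had log2 levels of 4.67, 4.71 and 4.44 on the AIA arrays, against 3.43, 5.22 and 5.18 on the control arrays. The log2 difference was -0.59 ± 0.21 without control array 1, with a 95% interval of -1.04 to -0.14. Folr2, a folate receptor of resident tissue macrophages, had 4.54, 4.94 and 4.69 on the AIA arrays, against 3.46, 5.47 and 5.30 on the control arrays, and differed by -0.66 ± 0.17 without control array 1. Cd163, the haemoglobin scavenger receptor, had -0.76, -0.70 and -1.05 on the AIA arrays, against -1.57, -0.30 and -0.36 on the control arrays and differed by -0.51 ± 0.20 without control array 1. In each of the 3 genes all AIA arrays lay below control arrays 2 and 3 and above control array 1. Another Cd163 probe gave a log2 difference of 0.54 with all arrays, against -0.10 for the brighter probe. Csf1r, the receptor for macrophage growth factor, had 0.46, 0.71 and 0.32 on the AIA arrays, against -0.20, 1.06 and 1.11 on the control arrays, and Trem2, a lipid receptor of macrophages, had 4.86, 5.24 and 4.73 on the AIA arrays, against 3.57, 5.68 and 5.49 on the control arrays. Both followed the same order, with differences of -0.59 ± 0.19 and -0.64 ± 0.18 without control array 1. The other way, 8 of the 28 genes had a positive difference without that array. Of these, Fcgr3a had log2 levels of -0.54, -0.74 and -0.64 on the AIA arrays, against -3.80, -1.47 and -0.89 on the control arrays. Fcgr3a did not overlap and differed by 1.41 ± 0.55 with and 0.54 ± 0.35 without control array 1. Clec10a overlapped and differed by 0.75 ± 0.46 with and 0.10 ± 0.34 without it. Spp1, which encodes osteopontin of macrophages and bone, had -1.88, -1.43 and -1.98 on the AIA arrays, against 3.00, -1.29 and 1.72 on the control arrays, with the highest values on control arrays 1 and 3 and every AIA array below every control array.

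**Figure D4:**
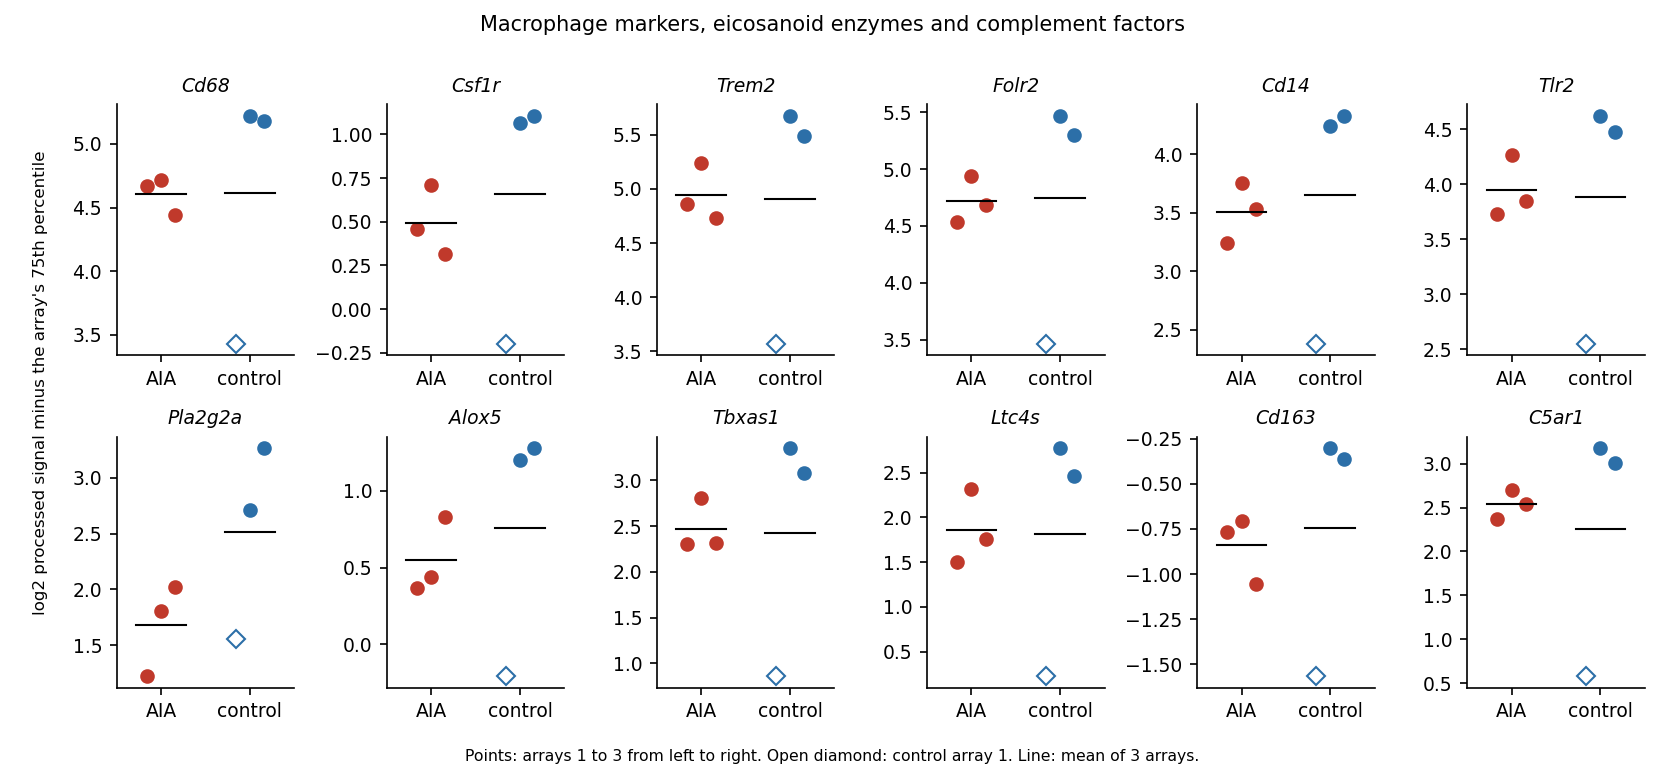
Log2 level of 12 macrophage, eicosanoid and complement genes on the 3 AIA arrays and the 3 control arrays. Each point is an array, an open diamond marks control array 1 and a line the group mean. For Cd68 and Folr2 the AIA arrays lie below control arrays 2 and 3 and above control array 1, which sets the control mean close to the AIA mean.

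Enzymes of prostaglandin and leukotriene synthesis were lower in AIA in sign, and more so without control array 1. Of 19 measured of 21, 14 were lower with all arrays and 18 without control array 1, and 2 with (5.33% of all genes) and 11 without that array (12.1%) were lower without overlap. The median log2 difference was -0.21 with and -0.35 without that array. At an unadjusted p under 0.05, 0 were lower with it (3.8% of all genes) and 5 without it (2.48%). Pla2g2a, a secreted phospholipase A2 that releases arachidonic acid, had log2 levels of 1.22, 1.80 and 2.02 on the AIA arrays, against 1.56, 2.71 and 3.26 on the control arrays. Its log2 difference was -0.83 ± 0.42 with and -1.30 ± 0.39 without control array 1, and without that array the groups did not overlap. Alox5, which starts leukotriene synthesis, had 0.37, 0.44 and 0.83 on the AIA arrays, against -0.21, 1.20 and 1.28 on the control arrays and differed by -0.69 ± 0.27 without control array 1. Ltc4s, leukotriene C4 synthase, differed by -0.76 ± 0.28 and Tbxas1, thromboxane synthase, by -0.74 ± 0.23 without it. The macrophage list, whose cells use this pathway, was lower without control array 1 as well, and its part here was not tested.

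Among complement genes, C3 and Cfb were higher in AIA, and C5ar1 was lower without control array 1. C3, the central component, had log2 levels of 1.54, 0.80 and 1.60 on the AIA arrays, against -0.80, 0.59 and 0.03 on the control arrays. All AIA arrays lay above all control arrays, AIA array 2 by 0.21, and the log2 difference was 1.37 ± 0.63 with and 1.00 ± 0.69 without control array 1. Cfb, factor B of the alternative pathway, had 1.83, 1.47 and 2.18 on the AIA arrays, against 0.67, 1.21 and 0.86 on the control arrays, with no overlap and a difference of 0.91 ± 0.41 with and 0.79 ± 0.46 without that array. C5ar1, the receptor for the C5a fragment, had 2.37, 2.70 and 2.54 on the AIA arrays, against 0.58, 3.18 and 3.00 on the control arrays and differed by -0.55 ± 0.21 without that array. Cd55, which limits complement and marks the synovial lining, had -0.56, 0.25 and 0.50 on the AIA arrays, against 0.51, 0.88 and 0.63 on the control arrays and did not overlap, with a difference of -0.60 ± 0.30. Over 21 complement genes measured, 15 were higher with all arrays and 9 without control array 1, when 8 were lower (12.1% of all genes) and 4 higher (13.3%) without overlap.

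Synovial fibroblast and lining genes were close to balanced with all arrays, with 12 higher and 14 lower and a median log2 difference of -0.04. Compared with control arrays 2 and 3 alone, 21 of 26 were lower, 7 of them without overlap (12.1% of all genes), and the median was -0.28. None passed an unadjusted p under 0.05 in either fit. Pdpn, the podoplanin of activated lining fibroblasts, had log2 levels of -0.94, -0.64 and -0.43 on the AIA arrays, against -1.05, -0.77 and -0.37 on the control arrays, with overlap and a difference of 0.06 ± 0.40. Vim, the intermediate filament of fibroblasts, had 5.84, 5.82 and 5.99 on the AIA arrays, against 6.38, 6.15 and 6.67 on the control arrays and did not overlap, with a difference of -0.52 ± 0.31.

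Matrix-degrading enzymes did not move together. Of 28 proteases and inhibitors measured, 14 were higher and 14 lower, none at an unadjusted p under 0.05. Mmp3, stromelysin 1, had log2 levels of 1.69, 1.11 and 1.78 on the AIA arrays, against 1.47, 2.29 and 2.05 on the control arrays, with overlap and a difference of -0.41 ± 0.66. Mmp13, the main collagenase of rat cartilage, had -1.38, -2.30 and -2.32 on the AIA arrays, against 0.90, -2.37 and -2.35 on the control arrays, and its difference of -0.73 ± 1.85 turned to 0.36 ± 2.05 without control array 1. Timp1, an inhibitor of these enzymes, had 4.06, 3.89 and 4.11 on the AIA arrays, against 4.14, 4.41 and 4.43 on the control arrays, with every AIA array below every control array and a difference of -0.31 ± 0.40. Adamts5, an aggrecanase, had 1.34, 1.76 and 1.20 on the AIA arrays, against -0.31, 1.05 and 1.20 on the control arrays. It was higher by 0.79 ± 0.41 without overlap, and by 0.31 ± 0.37 without control array 1. Mmp9 was well above background on control array 1 alone.

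Of 25 collagen genes outside cartilage, 6 were higher and 19 lower with all arrays, and 9 and 16 without control array 1. The median log2 difference was -0.20 with and -0.02 without that array. At an unadjusted p under 0.05, 2 were higher (2.48% of all genes) and 0 lower (3.8%) with all arrays. Col1a1, the main fibrillar collagen chain, had log2 levels of 7.38, 7.73 and 7.87 on the AIA arrays, against 7.11, 7.27 and 7.38 on the control arrays. Its groups did not overlap, although AIA array 1 and control array 3 were nearly equal, and the log2 difference was 0.41 ± 0.41. Other Col1a1 probes gave -0.06 and 0.58. Col3a1 differed by 0.17 ± 0.35 with overlap. Cartilage genes were lower in all 15 measured with a median log2 difference of -1.73, and 9 of 15 were higher without control array 1, with a median of 0.06. Mean log2 levels of the cartilage list were -1.01, -0.62 and -0.50 on the AIA arrays and 4.88, -1.45 and 0.01 on the control arrays. Bone genes followed, with a median of -0.59 with and 0.09 without control array 1. Acp5, the acid phosphatase of osteoclasts, had 5.58, 5.40 and 5.34 on the AIA arrays, against 6.58, 5.36 and 5.03 on the control arrays, and Ctsk, their collagen-degrading cathepsin, differed by 0.06 ± 0.50, both with overlap.

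Most skeletal muscle genes had a negative difference, with wide spread between arrays. Of 23 measured, 22 had a negative difference with all arrays and 20 without control array 1, and 5 with (5.33% of all genes) and 14 without that array (12.1%) were lower without overlap. The median log2 difference was -0.99 with and -1.64 without that array. Of the 23 genes, 9 were well above background on all 6 arrays. At an unadjusted p under 0.05, 1 was lower (3.8% of all genes) and 1 higher (2.48%) with all arrays. Tnni2, the fast troponin I, had log2 levels of 2.49, 0.06 and 1.50 on the AIA arrays, against 7.07, 4.17 and 2.65 on the control arrays. Control array 1 was the highest and AIA array 2 the lowest. The log2 difference was -3.28 ± 1.30 with and -2.06 ± 1.30 without control array 1. Mean log2 levels of the muscle list were -0.52, -2.21 and -1.01 on the AIA arrays and -0.78, 0.69 and -0.21 on the control arrays. Muscle is no part of the synovium, and the source of the muscle signal on these arrays was not tested.

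Fat genes were higher in AIA in every measured member with all arrays. Of 20 adipocyte genes, 20 had a positive difference and 3 did not overlap (5.32% of all genes), with a median log2 difference of 0.87. Against control arrays 2 and 3 alone, 17 were higher with a median of 0.26. Pparg, the master factor of fat cells, had log2 levels of 2.76, 2.65 and 1.98 on the AIA arrays, against 0.14, 1.99 and 1.51 on the control arrays and differed by 1.25 ± 0.75 with and 0.71 ± 0.81 without that array. Genes of fatty acid oxidation had a median of 0.52 with and 0.17 without control array 1, and those of fatty acid and triglyceride synthesis 0.50 and 0.08. Respiratory chain genes had 0.32 and 0.03. AIA array 1 lay above the mean of control arrays 2 and 3 for 20 of 20 adipocyte genes and 29 of 29 respiratory chain genes. The other AIA arrays did not share this for the respiratory chain. Its mean log2 levels were 4.79, 4.08 and 4.17 on the AIA arrays and 3.58, 4.36 and 4.21 on the control arrays. AIA arrays 2 and 3 thus lay below control arrays 2 and 3. For the adipocyte list the mean on AIA array 3 was 3.375, below 3.535 on control array 2. Pdk4, which spares glucose by blocking pyruvate dehydrogenase, had 3.99, 3.20 and 1.81 on the AIA arrays, against 0.10, 2.12 and 2.01 on the control arrays, with overlap through AIA array 3. Its log2 difference was 1.59 ± 0.70 with and 0.93 ± 0.71 without control array 1. Another Pdk4 probe gave 0.36 with all arrays.

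Glycolysis genes were lower in 15 of 19 with all arrays and in 15 without control array 1. Slc2a1, the basal glucose transporter, had log2 levels of 2.40, 2.08 and 2.12 on the AIA arrays, against 3.00, 2.68 and 2.78 on the control arrays. The groups did not overlap, and the log2 difference was -0.62 ± 0.21 with and -0.53 ± 0.23 without control array 1. Pfkp, a phosphofructokinase, had -0.23, -0.14 and 0.05 on the AIA arrays, against 1.16, 0.06 and 0.42 on the control arrays, with no overlap. Its difference was -0.65 ± 0.22 with and -0.35 ± 0.16 without control array 1. Slc16a3, the lactate exporter, had 0.36, 0.70 and 0.73 on the AIA arrays, against 5.22, 1.22 and 1.11 on the control arrays, with no overlap, and its difference of -1.92 ± 0.76 came to -0.57 ± 0.30 without control array 1. Egln3, an oxygen sensor induced by hypoxia, had -0.60, -0.19 and -0.03 on the AIA arrays, against 1.04, 0.06 and 0.96 on the control arrays. It did not overlap, and its difference was -0.96 ± 0.32 with and -0.78 ± 0.35 without control array 1. The hypoxia list had a median of -0.07 in both fits. On the shared slide, however, AIA array 1 lay above the mean of control arrays 2 and 3 for 14 of 19 glycolysis genes. In cholesterol synthesis 12 of 19 genes were lower. Msmo1, a sterol demethylase, had 4.00, 3.88 and 4.08 on the AIA arrays, against 4.11, 4.47 and 4.33 on the control arrays with no overlap and differed by -0.32 ± 0.14 with and -0.41 ± 0.14 without control array 1.

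**Figure D5:**
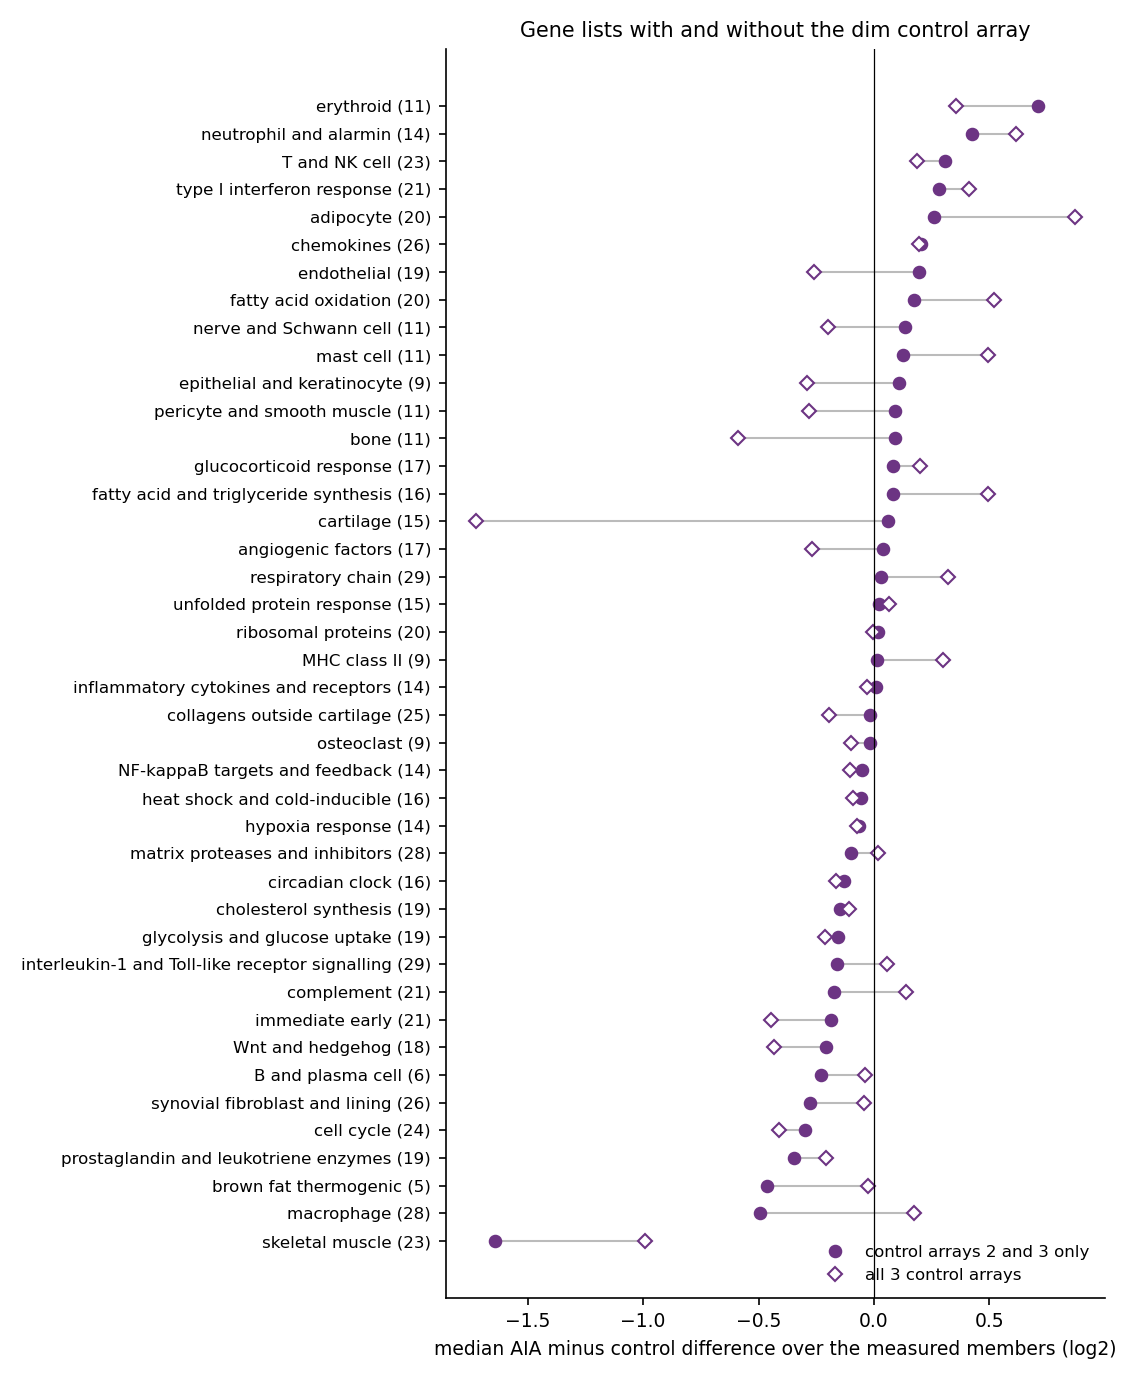
Median log2 difference, AIA minus control, over the measured members of 42 gene lists, with the number measured in brackets. Open diamonds use all 3 control arrays and filled circles control arrays 2 and 3. For macrophage genes the median was 0.17 with and -0.49 without control array 1, and for skeletal muscle genes it was -0.99 and -1.64.

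Leaving out control array 1 changed the sign of the median of 13 of the 42 gene lists. The plot of list medians shows the widest shifts for cartilage, bone, macrophage, muscle and adipocyte genes. Neutrophil and alarmin, type I interferon and erythroid genes had positive medians in both fits, the erythroid median being 0.36 with and 0.71 without that array. Cell cycle and skeletal muscle genes had negative medians in both fits.

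Endothelial genes were lower in 17 of 19 with all arrays and higher in 17 without control array 1, when 11 were higher without overlap (13.3% of all genes). Their median log2 difference was -0.26 with and 0.19 without that array. Tie1, a vascular receptor kinase, had log2 levels of -1.01, -0.87 and -0.79 on the AIA arrays, against 0.21, -0.66 and -0.72 on the control arrays. It did not overlap, and its difference was -0.50 ± 0.19 with and -0.20 ± 0.12 without control array 1. Tie1 was thus 1 of the 2 genes of the list that stayed lower without that array. Apln, a peptide of growing vessels, had 1.56, 2.14 and 2.44 on the AIA arrays, against 4.20, 2.89 and 2.34 on the control arrays. It overlapped, and its difference was -1.10 ± 0.44 with and -0.57 ± 0.38 without control array 1. Red cell genes were higher in 9 of 11 with all arrays, and control array 3 had the lowest mean log2 level. That mean was 0.23, -0.16 and -0.36 on the AIA arrays and -0.14, 0.42 and -1.94 on the control arrays.

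Immediate early genes, which respond within minutes to stimulation or tissue handling, were mostly lower in AIA. Of 21 measured, 16 had a negative difference, 5 of them at an unadjusted p under 0.05 (3.8% of all genes), and 4 were lower without overlap (5.33%). Without control array 1, 13 were lower and 8 higher, and the median log2 difference was -0.45 with and -0.19 without that array. Nr4a1, an orphan nuclear receptor, had log2 levels of 1.63, 1.47 and 2.24 on the AIA arrays, against 4.65, 2.28 and 2.95 on the control arrays. Its groups did not overlap, and the log2 difference was -1.51 ± 0.48 with and -0.84 ± 0.37 without control array 1. Egr2, a zinc finger factor, had -1.49, -1.45 and -1.43 on the AIA arrays, against -0.78, -0.37 and -0.73 on the control arrays, with no overlap and a difference of -0.83 ± 0.30 with and -0.91 ± 0.34 without that array. Dusp1, a MAP kinase phosphatase that glucocorticoids also induce, had -1.22, -1.20 and -1.33 on the AIA arrays, against 0.85, -0.81 and -0.40 on the control arrays. It did not overlap, and its difference was -1.13 ± 0.37 with and -0.64 ± 0.30 without control array 1.

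Glucocorticoid targets did not share the direction of Dusp1. Fkbp5, a sensitive target of the hormone's receptor, had log2 levels of 3.16, 2.29 and 2.53 on the AIA arrays, against 1.31, 2.14 and 1.82 on the control arrays. Every AIA array lay above every control array, and the log2 difference was 0.90 ± 0.35 with and 0.68 ± 0.38 without control array 1. Other Fkbp5 probes gave 0.34 and 0.90. Zbtb16, another target, had -1.38, -2.24 and -2.43 on the AIA arrays, against -3.23, -2.74 and -2.97 on the control arrays with no overlap and a difference of 0.96 ± 0.45, against 0.24 for another probe. Of 17 such genes, 12 were higher in both fits, with medians of 0.20 and 0.08. In the circadian clock list 10 of 16 were lower. Bhlhe41, a repressor of the clock, had 2.86, 3.11 and 2.98 on the AIA arrays, against 3.36, 3.71 and 3.49 on the control arrays, with no overlap and a difference of -0.53 ± 0.20 with and -0.61 ± 0.22 without control array 1. Npas2, a clock activator, overlapped and differed by 0.75 ± 0.30 with and 0.52 ± 0.31 without control array 1.

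Cell cycle genes were lower in 22 of 24 in both fits, against 53.5% of all genes with and 47.1% without control array 1. Their median log2 difference was -0.41 with and -0.30 without that array. At an unadjusted p under 0.05 in limma, 0 were lower with it (3.8% of all genes) and 1 without it (2.48%). Lower without overlap were 7 with (5.33% of all genes) and 11 without that array (12.1%), and 11 of the 24 were well above background on all 6 arrays. Mean log2 levels over the list were -1.72, -2.07 and -1.99 on the AIA arrays and -1.32, -1.50 and -1.76 on the control arrays, with overlap. Pcna, the sliding clamp of DNA replication, had log2 levels of 2.38, 2.28 and 2.28 on the AIA arrays, against 2.16, 2.65 and 2.54 on the control arrays. It differed by -0.28 ± 0.10 without control array 1, which lay below all AIA arrays. Ccnd1, which encodes cyclin D1, overlapped and differed by -0.49 ± 0.29 with and -0.08 ± 0.21 without control array 1. Wnt and hedgehog genes were lower in 12 of 18, with a median of -0.43 with and -0.21 without that array. Axin2, a feedback target of Wnt signalling, had -3.29, -3.02 and -2.95 on the AIA arrays, against -1.53, -2.51 and -2.42 on the control arrays. It did not overlap, and its difference was -0.93 ± 0.36 with and -0.62 ± 0.37 without control array 1. Ribosomal protein genes were even, with 10 higher and 10 lower of 20.

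Among stress genes, Trib3, a pseudokinase of the integrated stress response, had log2 levels of 2.51, 2.54 and 2.36 on the AIA arrays, against 0.73, 1.72 and 1.77 on the control arrays. No AIA array lay below a control array, and the log2 difference was 1.06 ± 0.47 with and 0.73 ± 0.50 without control array 1. Ddit3, a transcription factor of the same response, had 1.14, 1.16 and 0.99 on the AIA arrays, against 0.17, 0.55 and 0.87 on the control arrays. It did not overlap, and its difference was 0.56 ± 0.24 with and 0.38 ± 0.25 without control array 1. Atf4, which drives both, had 5.38, 5.42 and 5.47 on the AIA arrays, against 5.19, 5.08 and 5.27 on the control arrays, also without overlap and with a difference of 0.24 ± 0.17. Of 15 unfolded protein response genes, 10 were higher, 3 of them without overlap (5.32% of all genes). Heat shock genes were lower in 9 of 16 with a median of -0.09.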

How the data were processed

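Each array was deposited as an Agilent Feature Extraction 10.7 scanner file, per the submitters' processing notes. The intensity used is the processed signal, which the authors' scanner software had corrected for background, per the file headers. The log2 level is that intensity's log2 minus the 75th percentile of its array, taken over probes for genes. The series table deposited by the authors holds log2 values that track the log2 signals, and served as an alternative. Its centring is not given in the sources used here. Of 41012 gene probes, 28271 were kept, since the scanner called them well above background in all 3 arrays of some group, and the brightest stood for each of 23607 genes, 12046 of them with a symbol. Genes were tested with limma 3.58.1 in R 4.3.3, with a mean per group over all 18 arrays and 12 residual degrees of freedom, and Benjamini-Hochberg adjustment over all genes. The scripts were tested on simulated data. No genome build is named in the files, so no coordinates are given.

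Named genes are the 12 higher and 12 lower with the smallest p, with and without control array 1, the 10 each way with the largest difference without overlap (both only among genes with a symbol that were well above background on every array of the higher group), key genes, and up to 4 members of each list with the smallest p. Members and lists were chosen with earlier results of these data known, and 722 of 859 distinct listed genes were measured. Where no array of a group detected a gene, its fold is a bound set against the lowest detected signal. Alternatives were each array left out in turn, other scalings, normexp background correction with an offset of 50, the series table, the 6 arrays alone, slide as a fixed or random block, array weights, other probe filters, and 3 combinations without control array 1 that were chosen after seeing the data. The number of arrays limits the precision.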

Additional observations from a re-analysis of the deposited data

How the results depend on the processing

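Under limma, the 0 genes called stayed at 0 without AIA array 1, 2 or 3 and without control array 1, under quantile normalization, scaling to probes well above background on all 18 arrays, normexp correction, the series table, the 6 arrays alone, slide as a random block and both other probe filters. The leave-one-out counts ran from 0 to 9, with 2 without control array 2 and 9 without control array 3. Slide as a fixed block called 13, a fit in which the difference rests on AIA array 1 against the controls of its slide, and array weights called 34 (0.144%). Irak2, Zbtb5, Ubxn2b and Actrt2, whose levels fell from position 1 to position 4 on the shared slide, were called lower without control array 3 and with array weights. None of them was called with slide as a fixed block. Chosen after seeing the data, leaving out control array 1 called 1 with probes well above background on the other 5 arrays (Ubxn2b, lower), 3 with quantile normalization and 0 with only the other 5 arrays. The cause of these differences was not tested.

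Genes without overlap numbered 1818 to 3134 higher in AIA and 1862 to 3128 lower when 1 array was left out, where fewer arrays overlap less often. Without control array 1 the counts were 3134 and 2849, without AIA array 3 they were 2573 and 3128, and without control array 2 they were 2618 and 2450. Probes well above background on all 6 arrays gave 771 and 755 of 14197 genes, since fewer genes were tested. Without control array 1, probes well above background on the other 5 gave 2471 and 2342, and quantile normalization 2629 and 3391. Other scalings and filters stayed within 1.5 times of 1255 and 1259. Without a filter on dim probes the median of all genes was -0.141. That median includes probes not well above background, whose values on control array 1 are not measured levels, so it gives no direction for dim genes. Of 42 list medians, 13 changed sign without control array 1, 11 with array weights, 10 with slide as a fixed block and 1 to 4 under the other scalings, background correction and series table, where neutrophil, interferon, adipocyte, muscle and cell cycle genes kept their sign. No paired analysis was possible because the labels number every array as the same replicate. Low signal on control array 1 limits every gene below its background there.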

Other observations

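Several genes outside the lists had large differences without overlap. Alb, which encodes serum albumin, had log2 levels of 4.42, 4.23 and 2.98 on the AIA arrays, against -0.50, 2.12 and 2.47 on the control arrays. AIA arrays 1 and 2 were the highest and control array 1 the lowest, and the log2 difference was 2.51 ± 1.26 with and 1.58 ± 1.35 without control array 1. Ces1d, a carboxylesterase of liver and fat, had 6.58, 7.12 and 6.41 on the AIA arrays, against 3.07, 5.82 and 5.75 on the control arrays, with a difference of 1.82 ± 0.93 and 0.92 ± 0.92 without that array. Pde3b, the phosphodiesterase through which insulin restrains lipolysis, had 0.50, 0.98 and -0.07 on the AIA arrays, against -3.62, -0.11 and -0.31 on the control arrays, and only control array 1 lay far below the rest. St3gal3, a sialyltransferase, had -2.75, 1.08 and -2.87 on the AIA arrays, against -3.73, -3.07 and -3.65 on the control arrays. Its log2 difference of 1.97 ± 0.77 rests on AIA array 2, and it was well above background on only 1 control array. Grem1, a secreted antagonist of bone morphogenetic proteins, had -1.98, -2.58 and -1.99 on the AIA arrays, against 3.22, -1.94 and -1.19 on the control arrays. Its difference of -2.22 ± 0.96 came to -0.62 ± 0.54 without control array 1.

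Genes of smaller cell populations showed little. Of 11 mast cell genes measured, 7 had a positive difference, 0 of them without overlap. Cma1, the mast cell chymase, had log2 levels of 2.66, 2.64 and 2.34 on the AIA arrays, against 1.49, 2.53 and 1.92 on the control arrays. It overlapped and differed by 0.57 ± 0.24 with and 0.32 ± 0.22 without control array 1. Of 11 pericyte and smooth muscle genes 10 were lower with all arrays and 4 without control array 1. In the epithelial and keratinocyte list 9 of 16 were measured and 3 were well above background on all 6 arrays. Slurp1, a secreted peptide of keratinocytes, had -0.66, 0.12 and -0.0035 on the AIA arrays, against 1.16, 0.78 and 1.03 on the control arrays. Every AIA array lay below every control array, and the log2 difference was -1.17 ± 0.31 with and -1.08 ± 0.35 without control array 1.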
